A study of Mus musculus with 12 samples.

Results

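Mbp, Mog, Mag, Mobp, Cnp, Opalin, Cldn11, Ermn and Myrf were followed as the oligodendrocyte myelin genes of the mouse brain. They were chosen by gene name, and all 9 were found among the 25556 genes of the joined count tables and were among the 17208 genes with enough reads to be tested. RNA was sequenced from brain tissue of male C57BL6 mice in 12 libraries. All animals were injected i.p. each day from postnatal day 30 to 44, with a dose of 5 mg/kg THC, the cannabinoid behind the intoxicating effect of cannabis, or with the vehicle of 8% Tween-80 in saline. At day 70 they received i.p. saline or 0.33 mg/kg of LPS, a lipopolysaccharide from bacterial outer membranes that sets off innate immune responses, and brain was taken 24 h later. The 4 groups of 3 libraries are Veh_Ctrl (vehicle, then saline), THC_Ctrl (THC, then saline), Veh_LPS (vehicle, then LPS) and THC_LPS (THC, then LPS). The labels name no brain region and do not say whether each library is a different mouse, so the p-values describe the spread of these samples only, and some of it may be technical.

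Oligodendrocytes wrap axons of the central nervous system in myelin, a stack of membrane that is rich in cholesterol and glycolipids and holds a small set of abundant proteins. Mbp holds the compact membrane together, Cnp, Mag and Opalin sit in its less compact inner and paranodal parts, Mog faces outward, and Myrf is the transcription factor that switches on the myelin program as precursors mature. The messenger RNAs of Mbp and Mobp are known to be carried out into the processes of the cell and translated there. In whole tissue, fewer oligodendrocytes and less of a messenger RNA per oligodendrocyte cannot be told apart.

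Library totals ran from 16.7 to 44.7 M reads. THC_LPS replicate 3 stood apart: its Spearman correlation between a gene's GC content and its deviation was -0.749, against -0.11 to 0.276 in the other 11 libraries, and 9.11% of its reads were mitochondrial, against 4.11 to 7.11%. Veh_LPS replicate 1 had the lowest Spearman correlation between a gene's length and its deviation, -0.311, where the highest of all libraries was 0.283. It also had the highest mitochondrial share after THC_LPS replicate 3, 7.11%. Veh_LPS replicate 2 held 3638 CPM (reads scaled to library size, here after edgeR's TMM scaling) of the pituitary hormone gene Gh, against at most 10.6 CPM elsewhere. Caudal genes, which mark hindbrain and spinal cord, varied widely. The summed CPM of that list (19 of its 20 genes are in the files, 13 were tested) was 11.2 to 54.0 in Veh_Ctrl, 20.0 to 83.6 in THC_Ctrl, 78.8 to 85.4 in Veh_LPS and 11.3 to 82.0 in THC_LPS, and its Hox genes were at 0 reads in Veh_Ctrl replicate 2. EdgeR called 3 of them higher in Veh_LPS than in Veh_Ctrl (Hoxb6, Hoxa5 and Hoxb8), where it called 0.622% of all tested genes. Whether the tissue taken differed between the libraries was not tested. All 31 other mature oligodendrocyte genes passed the expression filter. So did 17208 of all 25556 genes, so this is no test of the labelled tissue.

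Per gene length the 9 genes spanned a wide range, and the order was led by the structural proteins. Mbp, whose protein holds the inner faces of the membrane together, had a median of 678 FPKM (reads scaled to gene length and library total; lowest 409, highest 837) and ranked 19th among all tested genes. Mobp, a further basic protein of compact myelin, followed with a median of 199 FPKM (144 to 279) and Cnp, an enzyme of the cytoplasmic channels, with 156 FPKM (108 to 180.1). Mag, the adhesion protein of the membrane next to the axon, had 107 FPKM (49.3 to 119.7), and Cldn11, the tight junction protein that seals the myelin layers, had 101 FPKM (86.7 to 116). Mog, the surface glycoprotein known as a target in autoimmune demyelination, had 43.6 FPKM (36.7 to 53.2). Myrf had 16.4 FPKM (8.83 to 19.8), Ermn, a cytoskeletal protein of late oligodendrocytes, 15.7 FPKM (12.2 to 25.2) and Opalin, a transmembrane glycoprotein of mature oligodendrocytes, 15.1 FPKM (8.05 to 18.0). The ranges of neighbours in this order overlapped for every pair but Mbp and Mobp, Cldn11 and Mog, and Mog and Myrf. That of Cnp also overlapped Cldn11 and that of Mag also Mog. Within every library, though, Cnp was above Mag and Cldn11, and Mag was above Mog. The order of Mobp and Cnp, of Mag and Cldn11, and of Myrf, Ermn and Opalin changed between libraries, so these are not ordered. Together the 9 genes took 0.356 to 0.587% of all reads, lowest in THC_LPS replicate 3 and highest in Veh_LPS replicate 1, and Mbp alone took 0.196 to 0.401%.

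In the coordinates of the files (mm10), Mog lies on chromosome 17 at 37010743 to 37023398, Mag on 7 at 30899176 to 30914873 and Mobp on 9 at 120149742 to 120181484. Cnp lies on chromosome 11 at 100574904 to 100591729, Cldn11 on 3 at 31149946 to 31164324 and Ermn on 2 at 58045113 to 58052864. Opalin, at 41062474 to 41077113, and Myrf, at 10208272 to 10240748, are both on chromosome 19. An antisense neighbour overlaps Cnp (Dnajc7) and Ermn (Galnt5), and reads of such pairs may not be separable, because no source used here gives the strand handling of the counting.

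The promoters of 4 members are shown because these genes carry the contrast described next: Opalin, Mog and Cnp had lower levels in most LPS libraries and Mobp had higher ones. Each sequence is RefSeq's (build GRCm38.p6), 300 bases from 250 before the start site to 50 after it, with capitals marking 2 searched motifs. These are CTGGCAC or CTGGTAC, known for binding by MYRF, and ACAAAG or ACAATG, known for binding by SOX proteins such as SOX10, each searched on both strands.
Opalin, chr19:41077064-41077363, minus strand: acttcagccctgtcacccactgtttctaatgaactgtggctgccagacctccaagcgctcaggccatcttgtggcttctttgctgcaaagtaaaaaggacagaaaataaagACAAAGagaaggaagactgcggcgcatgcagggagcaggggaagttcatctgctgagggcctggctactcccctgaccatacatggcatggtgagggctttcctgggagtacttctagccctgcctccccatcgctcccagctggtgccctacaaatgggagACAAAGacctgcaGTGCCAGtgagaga
Mog, chr17:37023349-37023648, minus strand: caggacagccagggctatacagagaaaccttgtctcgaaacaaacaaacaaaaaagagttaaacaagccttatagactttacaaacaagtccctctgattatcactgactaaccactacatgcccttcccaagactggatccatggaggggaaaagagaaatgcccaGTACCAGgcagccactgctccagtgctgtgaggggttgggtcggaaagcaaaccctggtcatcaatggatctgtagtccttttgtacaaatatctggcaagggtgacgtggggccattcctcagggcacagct
Cnp, chr11:100574689-100574988, plus strand: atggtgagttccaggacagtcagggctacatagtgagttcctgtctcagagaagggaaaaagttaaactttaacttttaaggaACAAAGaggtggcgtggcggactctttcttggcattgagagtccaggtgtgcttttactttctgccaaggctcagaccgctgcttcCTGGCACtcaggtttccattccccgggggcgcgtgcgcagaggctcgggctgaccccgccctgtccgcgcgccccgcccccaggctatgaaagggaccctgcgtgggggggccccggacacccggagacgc
Mobp, chr9:120149492-120149791, plus strand: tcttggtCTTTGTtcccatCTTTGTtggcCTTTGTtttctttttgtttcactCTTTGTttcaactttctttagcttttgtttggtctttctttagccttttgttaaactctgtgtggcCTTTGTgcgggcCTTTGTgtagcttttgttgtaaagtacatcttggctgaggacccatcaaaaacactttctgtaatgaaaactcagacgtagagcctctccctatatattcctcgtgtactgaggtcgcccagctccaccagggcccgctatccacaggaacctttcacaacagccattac
The MYRF letters lie 83 bases before the start site in Mog, 81 bases before it in Cnp and 36 bases after it in Opalin. They are absent from the Mobp window, which holds the SOX letters 6 times, from 243 to 120 bases before the start site. These 4 genes were picked by their direction under LPS, so no link between letters and direction can be read from them. Of the 7 members with a promoter entry (9 windows in all), 4 held the MYRF letters (Cnp, Mag, Mog and Opalin), as did 7.10% of 32851 mouse promoters of the same length. A member was counted if any of its windows held the letters, while the shares of all promoters count each window singly. The units are thus not alike. The SOX letters were found in 5 members (Cnp, Ermn, Mag, Mobp and Opalin) and in 28.6% of all promoters. A match of letters is a description of the window and not a site in use.

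**Figure D1:**
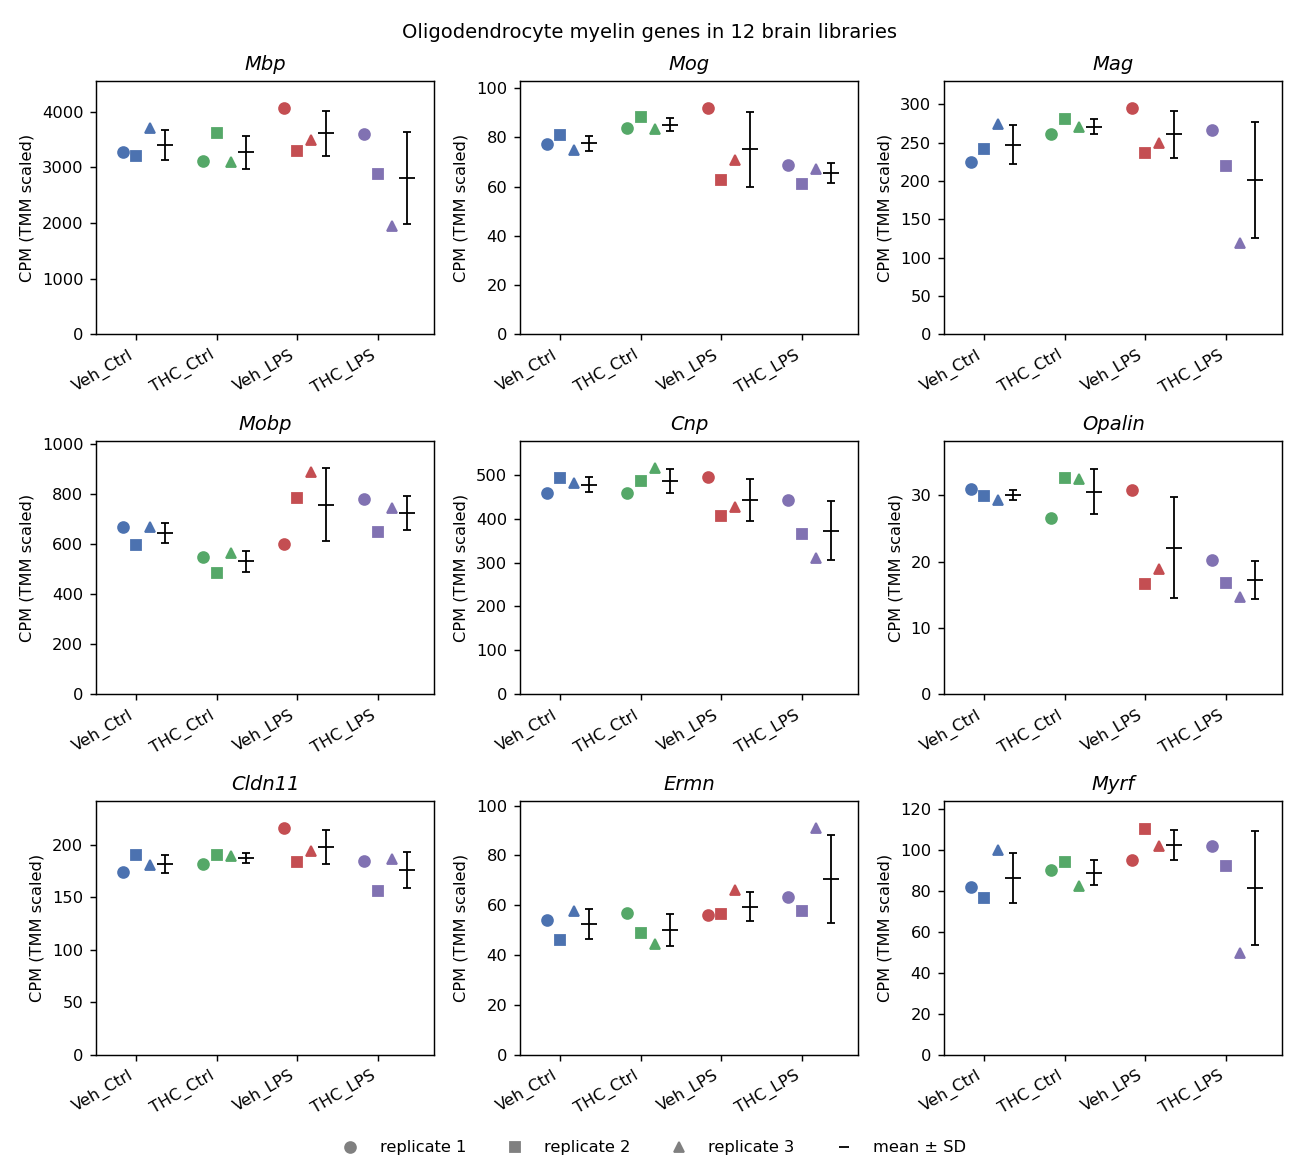
CPM (TMM scaled, linear axis from 0) of the 9 myelin genes in each of the 12 libraries, 1 panel a gene, with replicates as circle, square and triangle and the group mean ± SD in black. Opalin sits at 26.6 to 32.6 CPM in the 6 libraries without LPS and at 14.7 to 20.3 CPM in 5 of the 6 with LPS, while Veh_LPS replicate 1 stays at 30.8 CPM.

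The question of the adult treatment was how LPS moved these genes, after vehicle, after THC and averaged over both pretreatments. Opalin fell with LPS in the average, and Mobp, Ermn, Cnp and Mog did not pass the test although their values moved in opposite directions. Opalin was at 30.9, 29.9 and 29.3 CPM in Veh_Ctrl and at 26.6, 32.6 and 32.5 CPM in THC_Ctrl. With LPS it was at 30.8, 16.6 and 18.9 CPM in Veh_LPS and at 20.3, 16.8 and 14.7 CPM in THC_LPS. Thus 5 of 6 LPS libraries lay below every library without LPS, the exception being Veh_LPS replicate 1. These values rest on 300 to 871 reads per library.

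Averaged over both pretreatments, Opalin had a log2 fold change of -0.64 ± 0.14 (SE; 0.644-fold; edgeR adjusted p = 0.0305). It was the only member called, 1 of 9, where edgeR called 1.52% of all tested genes and 0.174% as lower. Within the vehicle pretreatment its log2 fold change was -0.44 ± 0.19 (adjusted p = 0.633) and within the THC pretreatment -0.83 ± 0.20 (adjusted p = 0.0987). The difference between these effects, the interaction, was -0.38 ± 0.27 (adjusted p = 0.732), with a 95% interval from -0.92 to 0.15, and it was -0.07 without Veh_LPS replicate 1. The averaged call depended on single libraries: it held without THC_Ctrl replicate 1, Veh_LPS replicate 1, THC_LPS replicate 1 or THC_LPS replicate 3 (adjusted p from 0.000942 to 0.038), and was lost without any of the other 8 (0.0641 to 0.107), with log2 fold changes of -0.79 to -0.55 over all 12. It was also lost without Veh_LPS replicate 2 and THC_LPS replicate 3 together (-0.47, adjusted p = 0.0605). Without Veh_LPS replicate 1, edgeR called Opalin after vehicle (-0.76, adjusted p = 0.0419), after THC (-0.83, adjusted p = 0.0377) and in the average (-0.79, adjusted p = 0.000942).

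**Figure D2:**
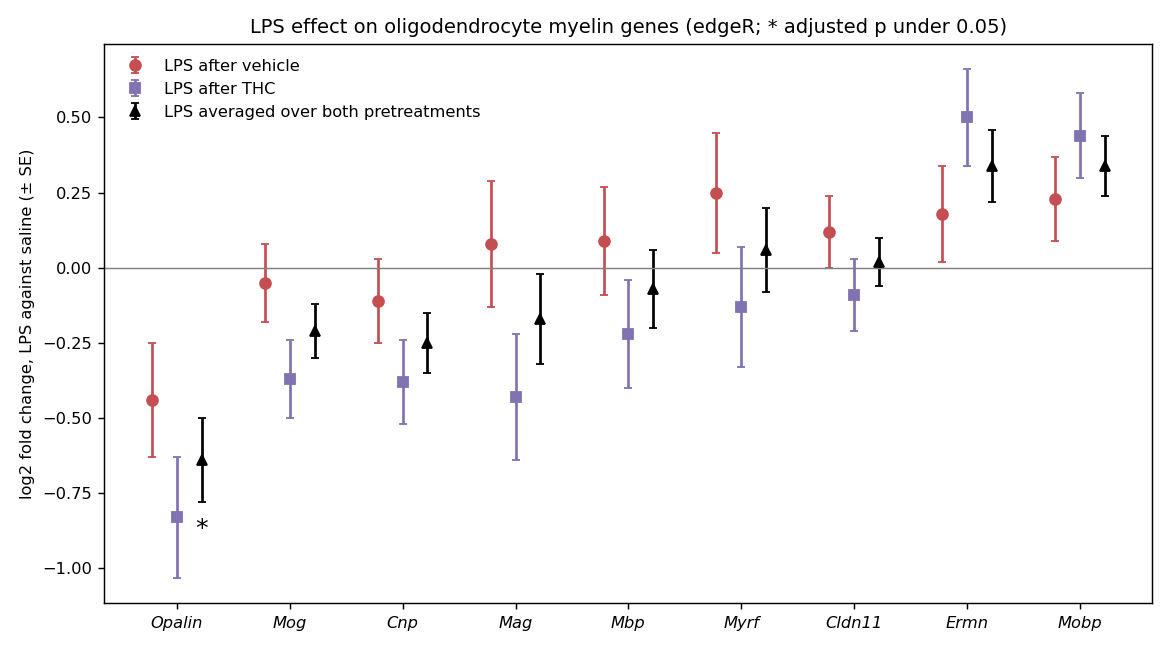
Log2 fold change of LPS against saline (± SE, edgeR) for the 9 genes after vehicle (circles), after THC (squares) and averaged over both (triangles), with n = 3 libraries a group. Only the averaged value of Opalin, -0.64, carries the star of an adjusted p under 0.05, and Ermn and Mobp lie at the upper end with averaged values of 0.34 each.

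Mobp had values that ran the other way. It was at 670.1, 598 and 667 CPM in Veh_Ctrl, 547, 485 and 565 CPM in THC_Ctrl, 601, 785 and 888 CPM in Veh_LPS and 781, 647 and 743 CPM in THC_LPS. Of the 6 LPS libraries 4 lay above every library without LPS, and the lowest of the 6 was again Veh_LPS replicate 1. The averaged log2 fold change of Mobp was 0.34 ± 0.10 (edgeR adjusted p = 0.114) and missed the threshold. DESeq2 called it (0.37, adjusted p = 0.0226), as did edgeR once trends on GC content were removed from each library (0.42, adjusted p = 0.0294), without Veh_LPS replicate 1 (0.41, adjusted p = 0.026) and without THC_LPS replicate 3 (0.36, adjusted p = 0.0479).

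The ratio of Mobp to Opalin reads within a library does not depend on the factor by which the library is scaled. Trends on GC content and length were not removed from it. This ratio was picked after the values were seen and is given without a test. It was 21.7, 20.0 and 22.8 in Veh_Ctrl, 20.6, 14.9 and 17.4 in THC_Ctrl, 19.5, 47.3 and 47.0 in Veh_LPS and 38.4, 38.5 and 50.7 in THC_LPS. Without LPS it thus stayed within 14.9 to 22.8. It was above that range in 5 of the 6 LPS libraries and inside it in Veh_LPS replicate 1.

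**Figure D3:**
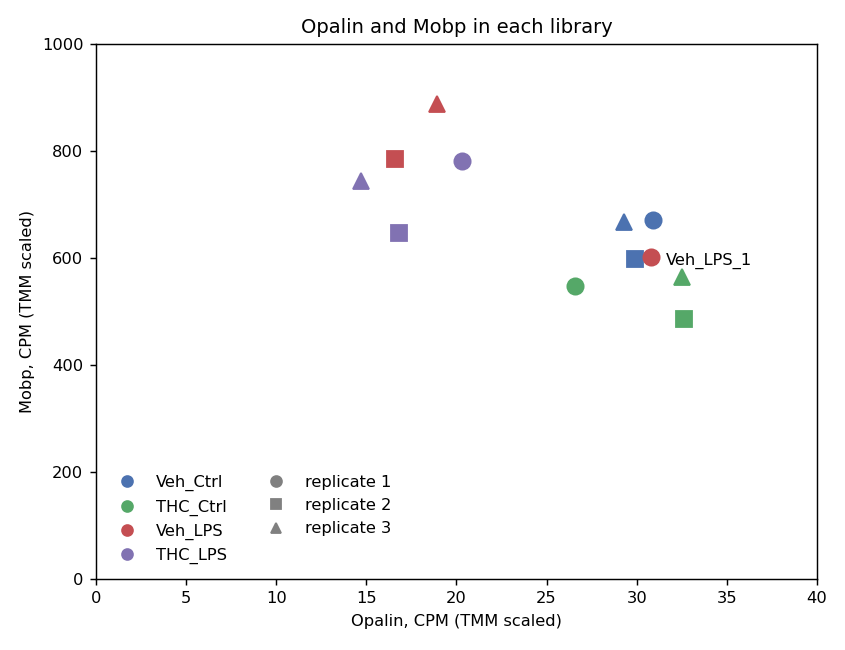
Opalin against Mobp, both as CPM (TMM scaled, linear axes from 0), with 1 point a library, colours for the 4 groups and symbols for replicates. The 5 LPS libraries at the upper left have Opalin at 14.7 to 20.3 CPM, and Veh_LPS replicate 1, named in the plot, lies among the libraries without LPS at 30.8 CPM of Opalin and 601 CPM of Mobp.

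Mog and Cnp followed the direction of Opalin at a smaller size and were not called by edgeR, while voom with sample weights called both after THC (adjusted p = 0.0263 and 0.04) and in the average (0.00576 and 0.0098). Mog was at 77.1, 80.9 and 74.9 CPM in Veh_Ctrl, 83.9, 88.1 and 83.3 CPM in THC_Ctrl, 91.8, 62.5 and 70.9 CPM in Veh_LPS and 68.8, 61.0 and 67.1 CPM in THC_LPS. Veh_LPS replicate 1 had the highest Mog level of all 12 libraries, and the other 5 LPS libraries had the 5 lowest. The averaged log2 fold change of Mog was -0.21 ± 0.09 (edgeR adjusted p = 0.24), with -0.37 ± 0.13 after THC (adjusted p = 0.174) and -0.05 ± 0.13 after vehicle. Cnp was at 459, 492 and 479.9 CPM in Veh_Ctrl, 458, 485 and 514 CPM in THC_Ctrl, 495, 405 and 426 CPM in Veh_LPS and 443, 364 and 310.5 CPM in THC_LPS. Here too the 5 lowest libraries were LPS libraries and Veh_LPS replicate 1 was not among them. Cnp had an averaged log2 fold change of -0.25 ± 0.10 (edgeR adjusted p = 0.193), which was -0.15 without THC_LPS replicate 3, -0.16 with GC trends removed and -0.14 with GC and length trends removed.

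Ermn had higher values with LPS and was not called by edgeR, while voom called it in the average (0.29, adjusted p = 0.0117). It was at 53.9, 45.9 and 57.8 CPM in Veh_Ctrl, 56.9, 49.0 and 44.4 CPM in THC_Ctrl, 56.0, 56.5 and 66.0 CPM in Veh_LPS and 63.3, 57.8 and 90.9 CPM in THC_LPS. The groups overlapped after vehicle, and after THC the lowest LPS library lay just above the highest library without LPS. Its averaged log2 fold change was 0.34 ± 0.12 (adjusted p = 0.149), and its value after THC moved from 0.50 to 0.19 once GC trends were removed.

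Mbp (chromosome 18, 82475146 to 82585637, with the antisense pseudogene Rpl21-ps8 inside it), Mag, Myrf and Cldn11 showed no LPS effect that edgeR could call. Mbp was at 3274, 3209 and 3708 CPM in Veh_Ctrl, 3114, 3616 and 3090 CPM in THC_Ctrl, 4064, 3293 and 3487 CPM in Veh_LPS and 3594, 2886 and 1942 CPM in THC_LPS. The highest and the lowest library were thus both LPS libraries, and the averaged log2 fold change was -0.07, with a 95% interval from -0.31 to 0.18. Mag was at 225, 242 and 275 CPM in Veh_Ctrl, 261, 280.5 and 271 CPM in THC_Ctrl, 295, 237 and 250.1 CPM in Veh_LPS and 267, 219 and 119 CPM in THC_LPS. Its averaged log2 fold change of -0.17 (95% interval -0.46 to 0.11) drew on THC_LPS replicate 3, where its level was less than in any other library. Myrf, the transcription factor, had an averaged log2 fold change of 0.06 (95% interval -0.21 to 0.33). Voom with sample weights called it higher after vehicle (0.34, adjusted p = 0.0415) and in the average (0.22, adjusted p = 0.0357). Its mean levels were 86.2 ± 12.3 CPM (SD, n = 3) in Veh_Ctrl, 88.9 ± 6.14 in THC_Ctrl, 103 ± 7.49 in Veh_LPS and 81.0 ± 27.6 in THC_LPS, where replicate 3 was at 49.6 CPM. Cldn11 lay between 156 and 216 CPM over all 12 libraries, and its averaged log2 fold change was 0.02 (95% interval -0.15 to 0.18).

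As a list, the members had no common direction under LPS. After vehicle edgeR called 0 of 9 (background 0.622% of tested genes; 1 of 9 at an unadjusted p under 0.05, background 7.45%), 6 log2 fold changes were positive and 3 negative, and the median was 0.09 against -0.04 over all tested genes. The groups overlapped for all 9 members there, while 16% of all tested genes had groups that did not overlap. After THC it called 0 of 9 (background 0.11%), 7 were negative and 2 positive, and the median was -0.22 against -0.01. In that comparison 5 of 9 had an unadjusted p under 0.05 (background 19.4%), and in the same 5 the groups did not overlap (background 23.3%): Mog, Cnp and Opalin were lower and Mobp and Ermn higher. In the average, 5 of 9 had an unadjusted p under 0.05 (background 18.6%), 5 were negative and 4 positive, and the median was -0.07 against -0.02. The 6 libraries with LPS overlapped the 6 without it for all 9 members, while 1.95% of all tested genes did not overlap. Voom with sample weights called 3 of 9 after vehicle (background 11%), 4 after THC (background 5.67%) and 6 in the average (background 24%). DESeq2 called 0 of 9 after vehicle (background 0.995%), 1 after THC (background 2.74%) and 2 in the average (background 3.42%).

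Some genes of other cell types also moved with LPS, and the part of these cell types in the values of the members was not tested. Of 10 microglia genes C1qb was called in the average, and the list summed to 276 to 297 CPM in Veh_Ctrl, 267 to 326 in THC_Ctrl, 365 to 415 in Veh_LPS and 304 to 397 in THC_LPS. Of 8 endothelial genes 3 were called higher (Vwf, Pecam1 and Ly6c1), with sums of 245 to 286 CPM without LPS and 334 to 389.9 CPM with it. The neuronal, forebrain, cerebellar, axon cytoskeleton, astrocyte, choroid plexus and ependymal, pituitary and caudal lists had 0 genes called by edgeR in the average. There DESeq2 called 1 neuronal, 1 astrocyte and 1 forebrain gene. Voom called 5 of 12 neuronal, 5 of 8 axon cytoskeleton and 3 of 10 astrocyte genes. It also called 2 of 10 forebrain, 1 of 10 cerebellar and 10 of 19 listed caudal genes. In that average edgeR called 1.52%, DESeq2 3.42% and voom 24% of all tested genes. Veh_LPS replicate 1, whose Opalin, Mog, Cnp and Mobp levels lay within the range of the libraries without LPS or, for Mog, above it, had the highest microglia sum of all 12, 415 CPM, and an endothelial sum of 337 CPM. Its caudal sum, 85.4 CPM, was also the highest, and the other Veh_LPS libraries, with Opalin at 16.6 and 18.9 CPM, had caudal sums of 78.8 and 81.0 CPM.

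For adolescent THC, edgeR called 0 of 9 members without LPS (background 0%), with LPS (background 0%) and in the average of both (background 0%), and no member had an unadjusted p under 0.05 (background 3.62%, 10.3% and 6.1%). Without LPS, Mobp was lower in all 3 THC libraries than in any vehicle library (532 ± 42.2 against 645 ± 40.8 CPM, mean ± SD, n = 3; log2 fold change -0.28 ± 0.14, edgeR adjusted p = 1). Mog was higher in all 3 (85.1 ± 2.58 against 77.6 ± 3.04 CPM). These were 2 of 9 members whose groups did not overlap, where 12.8% of all tested genes had such groups. The median log2 fold change of the members was 0.03 without LPS and -0.25 with it, against -0.01 and about 0 over all tested genes. With LPS 8 of 9 values were negative, the largest being Mag at -0.37 ± 0.21, Mbp at -0.36 ± 0.18 and Opalin at -0.36 ± 0.20, and Ermn was at 0.25 ± 0.16. Leaving out a single library moved these values to between -0.62 and -0.09 for Mag, -0.58 and -0.14 for Mbp, -0.52 and -0.04 for Opalin and 0.03 and 0.36 for Ermn. Without THC_LPS replicate 3 the median was -0.12, with Mag at -0.09 and Mbp at -0.14, and without Veh_LPS replicate 1 it was -0.16, with Opalin at -0.04. The smallest edgeR adjusted p of a member with LPS was that of Mbp, adjusted p = 0.482.

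The interaction of THC and LPS, the difference between the LPS effects after THC and after vehicle, was called for 0 of 9 members (background 0%; unadjusted 0 of 9, background 6.78%). Its median over the members was -0.31, with 7 values negative. It was -0.50 ± 0.29 for Mag, -0.39 ± 0.28 for Myrf, -0.31 ± 0.25 for Mbp and 0.32 ± 0.23 for Ermn, and without THC_LPS replicate 3 these became -0.23, -0.13, -0.10 and 0.09.

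**Figure D4:**
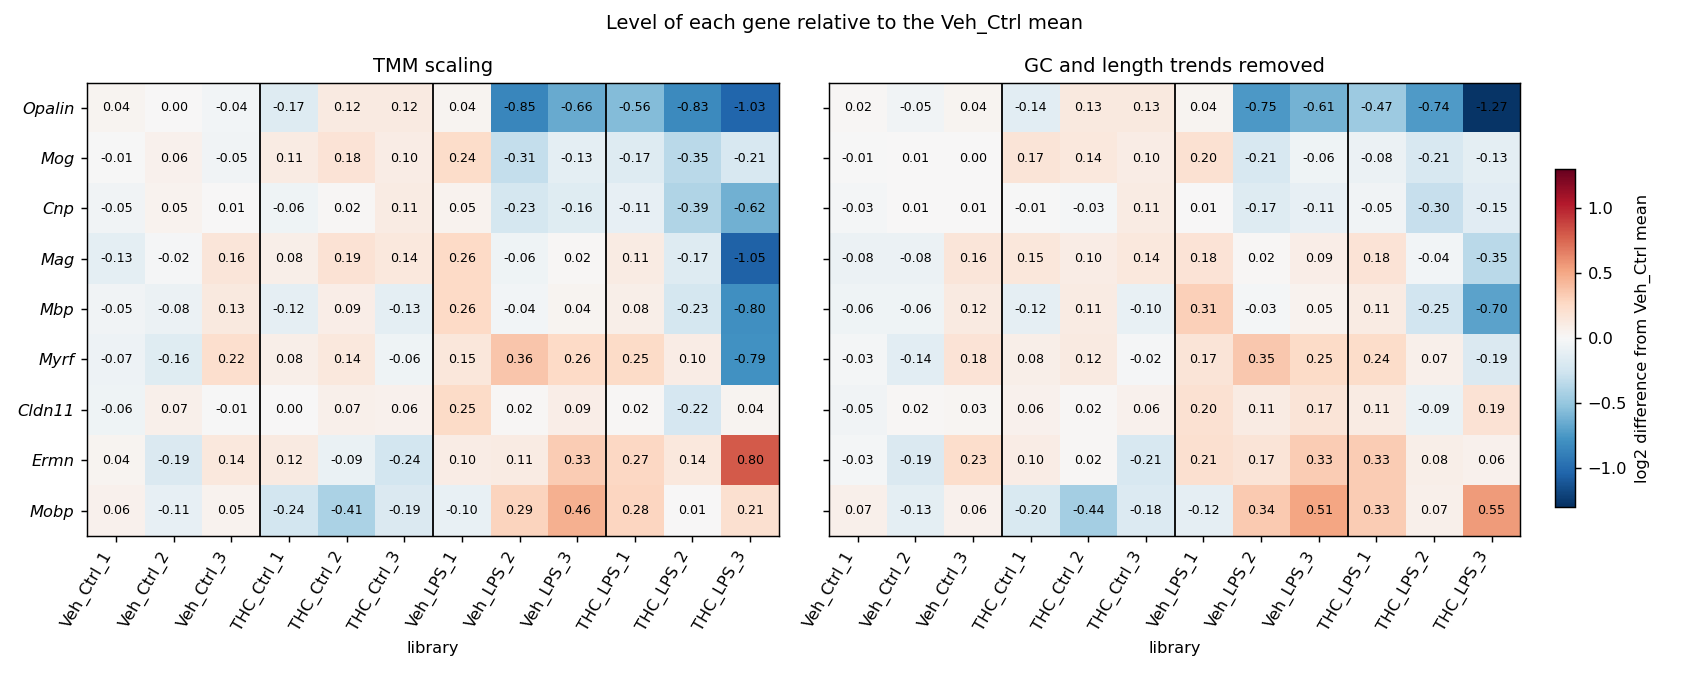
Log2 difference of each gene from its Veh_Ctrl mean in each library (columns, groups separated by lines), with TMM scaling on the left and with trends on GC content and length removed on the right; blue is lower, red higher. In the last column, THC_LPS replicate 3, Mag moves from -1.05 to -0.35 and Ermn from 0.80 to 0.06, while Opalin moves from -1.03 to -1.27.

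In THC_LPS replicate 3 the removal of GC trends moved several members, and their order there did not follow GC content throughout. Relative to the Veh_Ctrl mean, its log2 level was -1.05 for Mag and -0.79 for Myrf, whose genes are both 57.6% GC, and -0.62 for Cnp at 54.8% GC. Ermn, at 38.0% GC and so in the lowest 2.23% of tested genes, was at 0.80. With GC trends removed these became -0.39, -0.13, -0.18 and 0.04, while Opalin, at 45.8% GC, went from -1.03 to -1.31, Mobp, at 53.3% GC, from 0.21 to 0.52 and Mbp, at 51.0% GC, from -0.80 to -0.68. Opalin and Mobp thus lay further from the Veh_Ctrl mean after the removal. The median of the 9 members in that library was -0.62 before the removal and -0.17 after it, and lay between -0.22 and 0.15 in the other 11 before it. Without that library, the log2 fold changes after THC were -0.12 for Mag in place of -0.43 and 0.31 for Ermn in place of 0.50, those of Mbp and Myrf became 0.02 and 0.16, and that of Opalin was -0.69.

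Across the 12 libraries the members did not vary as a block. Their log2 levels correlated with r = 0.94 for Mbp and Mag, 0.90 for Cnp and Opalin, 0.88 for Mog and Opalin and 0.84 for Mag and Myrf. Mobp had negative values with Mog and Opalin (both r = -0.72), as had Ermn with Cnp (r = -0.83) and Opalin (r = -0.76). These are descriptions over 12 libraries that share 4 treatments and the GC trend of THC_LPS replicate 3. Among 11880 other genes averaging 5 CPM or more, those most like the mean standardised pattern of the 9 members were Aldh16a1 (r = 0.923), Dnajc4, Rhog, Npc2, Rps19, Nudt14, Armc6, Ech1, Idnk and Lmf2 (r = 0.900), of which 0 are on the oligodendrocyte lists. After group means were subtracted, they were Unc93b1 (r = 0.944), Fa2h (r = 0.930), Tsen54, Acd, Dnajc4, Gpr37 (r = 0.912), Prr18, Naprt1, Slc25a10 and Zfand2b (r = 0.897). Fa2h, which makes the hydroxylated fatty acids of myelin lipids, and Gpr37, a receptor of oligodendrocytes, are on the list of other mature oligodendrocyte genes. The GC contents of the 2 sets, 49.6 to 58.2% and 48.5 to 60.6%, lay mostly above the median of 49.8% over tested genes.

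Of 31 other mature oligodendrocyte genes, edgeR called Apod, which encodes a lipid-binding apolipoprotein, and no other. Over all tested genes, edgeR called 0.622% for LPS after vehicle and 1.52% in the LPS average. Apod was at 155, 159 and 189 CPM in Veh_Ctrl, 217, 214 and 240.3 CPM in THC_Ctrl, 297, 349 and 315 CPM in Veh_LPS and 326, 218 and 204 CPM in THC_LPS. It rose with LPS after vehicle (log2 fold change 0.93 ± 0.16, adjusted p = 0.0107) and in the average (0.54 ± 0.11, adjusted p = 0.0239), and was at 0.15 ± 0.16 after THC. The interaction for Apod was -0.78 ± 0.23 (edgeR adjusted p = 0.71). The call after vehicle was lost without Veh_Ctrl replicate 1 or 2 or Veh_LPS replicate 2 or 3 (adjusted p 0.0527 to 0.109), and that of the average also without THC_Ctrl replicate 1 or 2 (0.0621 to 0.0922 over these 6). Apod is also made by cells other than oligodendrocytes.

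The 31 genes had a median of -0.07 in the average, 21 of them negative and 10 positive, and summed to 3002 to 3530 CPM with no separation of the groups. Pllp, a proteolipid of myelin, had its libraries arranged as those of Opalin and was not called by edgeR: 82.7 to 106 CPM in the 6 libraries without LPS, 93.9 CPM in Veh_LPS replicate 1 and 34.7 to 73.1 CPM in the other 5 (-0.57 ± 0.16, adjusted p = 0.0923). DESeq2 and voom called it lower in the average and after THC, as did edgeR in the average with GC and length trends removed or without Veh_LPS replicate 1. It was named after its values were seen. The lineage regulators Sox10 and Olig2 had averaged log2 fold changes of -0.10 ± 0.17 and 0.09 ± 0.11.

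**Figure D5:**
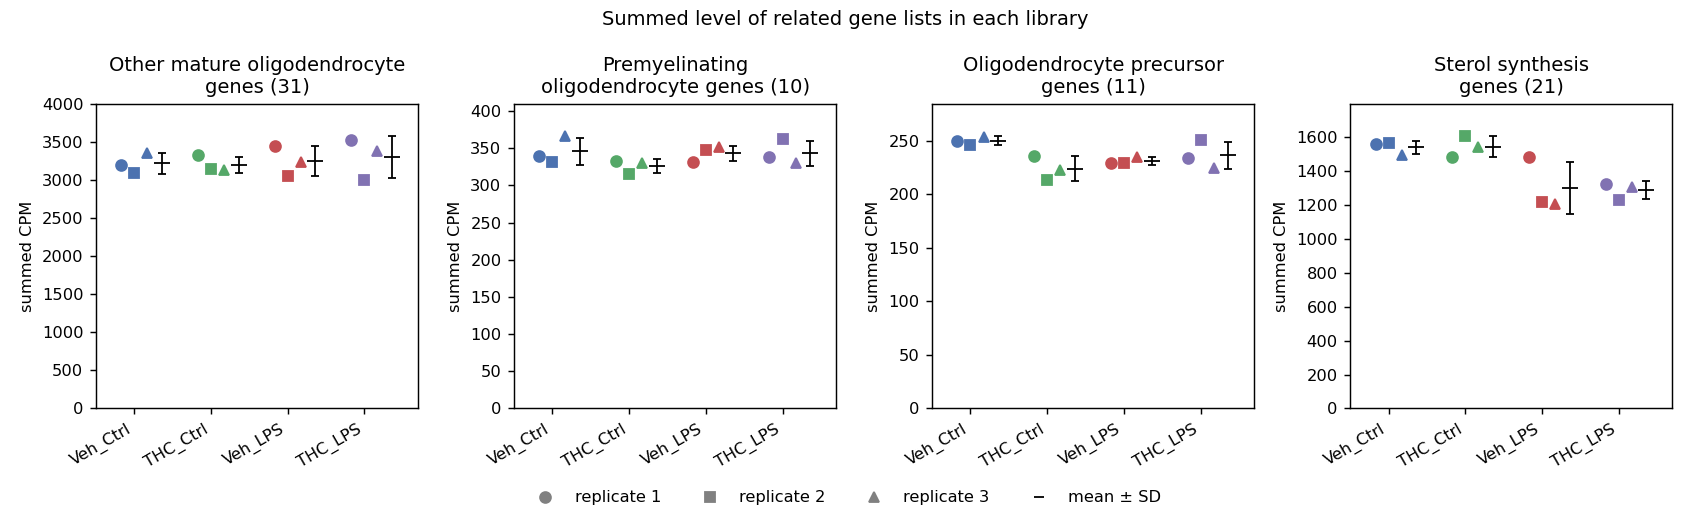
Summed CPM (linear axes from 0) of 4 related gene lists in each library, with replicates as circle, square and triangle and group mean ± SD in black; the precursor panel sums the 11 genes present in the files. The sterol synthesis genes sum to 1482 to 1606 CPM without LPS, to 1482 CPM in Veh_LPS replicate 1 and to 1206 to 1328 CPM in the other 5 LPS libraries, while the other 3 lists overlap between the groups with and without LPS.

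Younger stages of the lineage held no gene that edgeR called. Of 10 genes of differentiating, not yet myelinating oligodendrocytes edgeR called 0 in each of the 7 comparisons. The smallest p values under averaged LPS belonged to Itpr2 (log2 fold change 0.38 ± 0.12, adjusted p = 0.133), Rnf122 (-0.35) and Enpp6 (0.35), and voom called 2 of the 10 in that average, Itpr2 and Enpp6, both as higher. Of 10 tested precursor genes it also called 0, the smallest p values being those of Vcan (0.30), Susd5 (-0.23) and Xylt1 (-0.26). Voom called 2 of these in the average as higher, Vcan among them. In that average voom called 4130 of 17208 tested genes (24%), 1765 of them as higher. Pdgfra, the growth factor receptor that marks precursors, was at 64.9, 64.6 and 63.9 CPM in Veh_Ctrl, 52.3, 44.6 and 46.1 CPM in THC_Ctrl, 53.4, 52.2 and 55.5 CPM in Veh_LPS and 47.1, 54.0 and 56.3 CPM in THC_LPS. The 3 Veh_Ctrl libraries were thus above the other 9, with a THC effect without LPS of -0.44 ± 0.11 (edgeR adjusted p = 0.868) that voom called.

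Sterol synthesis genes supply the cholesterol that myelin needs, though every brain cell type uses them. Averaged over both pretreatments, all 21 had a negative log2 fold change under LPS, with a median of -0.25 against -0.02 over all tested genes, of which 54.2% were negative. Against 0.174% of all tested genes, edgeR called 3 of the 21 as lower. Among them the decarboxylase Mvd fell by 0.65 on the log2 scale (adjusted p = 0.0246) and Insig1, a sterol-regulated brake on the pathway, by 0.40 (adjusted p = 0.0494). Mvd was at 23.2, 24.3 and 20.3 CPM in Veh_Ctrl, 19.9, 26.5 and 24.8 in THC_Ctrl, 18.6, 15.0 and 15.4 in Veh_LPS and 16.9, 14.4 and 8.94 in THC_LPS, so that all 6 LPS libraries were below all 6 others. Libraries with and without LPS did not overlap, in either direction, for 1.95% of all tested genes. Leaving out a single library ended the call of Mvd in 6 of 12 cases (Veh_Ctrl 1 or 2, THC_Ctrl 2 or 3, Veh_LPS 2 or 3; adjusted p 0.0651 to 0.0891). That of Insig1 was lost in 9 (all but Veh_LPS 1, THC_LPS 1 and THC_LPS 3; 0.0714 to 0.172). Another 4 settings also ended it (0.0561 to 0.0905). Voom called 18 of the 21 as lower and DESeq2 3. Of all tested genes, voom called 2365 of 17208 as lower and DESeq2 107 of 19108. In either direction voom called 24% of all tested genes and DESeq2 3.42%. Myelin sphingolipid and fatty acid genes had 0 of 11 called by edgeR, 2 by voom and an averaged median of -0.04, the smallest p values being those of Sgms1 (0.16), Fasn (-0.20) and Degs1 (-0.17). Of 9 tested Schwann cell genes edgeR called 0 and DESeq2 and voom 1 each. Prx, a protein of peripheral myelin that was named by rule and not by its p, had an averaged log2 fold change of 0.34 ± 0.26 (edgeR adjusted p = 0.489). Other genes of this list had smaller p values, with changes in both directions.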

How the data were processed

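For each of the 12 libraries the authors deposited raw read counts by gene, named so in the headers, and every test started from them. The deposited FPKM, named so per the file headers, equalled reads divided by gene length and library total, as checked on the values, and was used only to order genes. STAR 2.5, HTSeq, DESeq2 and mm10 appear in the submitters' processing notes, without roles. For strand handling and annotation, nothing is given in the sources used here. Vehicle and THC libraries list 24562 and 24274 genes, and a gene absent from a list was taken as 0 reads. A single edgeR 4.0.16 quasi-likelihood fit in R 4.3.3 covered all 12 libraries (TMM, default expression filter, Benjamini-Hochberg over 17208 genes, called at an adjusted p under 0.05), with 7 comparisons. The SE, log2 fold change divided by the square root of F, and the 95% interval built from it are approximate. GC and length trends were removed by loess (span 0.5). Alternatives included DESeq2 1.42.0 and voom (limma 3.58.1). On simulated counts for LPS after THC (16910 genes), 22.4% of 1.5-fold, 74.6% of 2-fold and 97% of 4-fold changes were recovered. Of the 138 calls there, 6.52% were false. The simulated libraries had no GC or length trends, unlike the real ones, so recovery in the real data may differ. No libraries of a group agreed within sampling noise (chi-square per degree of freedom at least 10.5). The members and 16 other lists (204 of 206 entries of all lists matched) were chosen with earlier results of these data known. Named were all members, in other lists every called gene or else up to 3 with the smallest p, and Sox10, Olig2, Pdgfra, Prx and the summed Hox genes, with exceptions stated. Some genes the rule names are not reported here.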

Additional observations from a re-analysis of the deposited data

Results flagged for a closer look

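In Mog and Cldn11, all 3 libraries of one arm lay on one side of the mean of their comparison group. All 3 of the other arm lay on the opposite side of theirs. The share of all tested genes with such a pattern is not given here, so it is not read as particular to these genes. For Mog, every THC_Ctrl library lay above the Veh_Ctrl mean of 77.6 CPM and every THC_LPS library below the Veh_LPS mean of 75.0 CPM, and the interaction of THC and LPS was -0.33 ± 0.19 (edgeR adjusted p = 0.713), and -0.15 without Veh_LPS replicate 1. For Cldn11, every Veh_LPS library lay above the Veh_Ctrl mean of 182 CPM and every THC_LPS library below the THC_Ctrl mean of 188 CPM, and the interaction was -0.22 ± 0.16 (edgeR adjusted p = 0.735). The groups compared were not all separate. For Mog, the Veh_LPS mean drew on replicate 1 at 91.8 CPM, and replicate 2, at 62.5 CPM, lay inside the THC_LPS range of 61.0 to 68.8 CPM. For Cldn11, the THC_LPS libraries at 185 and 187 CPM lay inside the THC_Ctrl range of 182 to 190.4 CPM. Neither interaction passed the test.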

How the results depend on the processing

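The members were recomputed under 24 other settings, 12 of them leaving out a single library. A fit of the compared groups only was not run for the interaction and both averages, and 55 of 1485 recomputed log2 fold changes reversed, in 22 of 63 member results, none of which was called in all libraries. The averaged Opalin call held in 10 of 11 other settings. Beside the DESeq2 counts (1 after THC, 2 in the average) and those of voom (3, 4 and 6), the members called after THC numbered 1 with no expression filter (0.583% of all genes called) and 1 with GC and length trends removed beside the replicate block (0.674%). In the average they numbered 2 with GC trends removed (4.63%), 2 with GC and length trends removed (6.45%), 2 with the block added to that (4.79%) and 0 without Veh_LPS replicate 2 and THC_LPS replicate 3 together (1.53%). Replicate numbers did not pair the libraries (18 same-numbered pairs, r = -0.156 to 0.101), and with the replicate block alone the Opalin value was -0.66 (adjusted p = 0.0281). Veh_LPS 3 had the most reads and THC_LPS 1 the fewest, and the effect of depth on these calls was not tested.

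Reversed values under GC removal, under GC and length removal and with the block added to the latter were 0.05, 0.06 and 0.06 for Mobp (THC with LPS), and for Ermn -0.08 in each (THC with LPS), -0.04, -0.04 and -0.05 (interaction) and -0.06 in each (THC averaged). Myrf after THC became 0.07 with GC removal. Length removal, alone, with GC and with the block, gave 0.03, 0.02 and 0.02 for Cldn11 (LPS after THC) and 0.02, 0.00 and 0.01 for Mog (THC averaged). With voom, Myrf was at 0.10 (LPS after THC), Ermn at -0.00 (THC with LPS) and -0.04 (THC averaged), Mbp at 0.01 and Cldn11 at -0.04 (LPS averaged) and Mag at 0.03 (THC averaged). Without Veh_LPS 2 and THC_LPS 3 together, Mog was at 0.09 (LPS after vehicle), Mbp at 0.02 and Myrf at 0.16 (LPS after THC), Mbp at 0.10 and Mag at 0.02 (LPS averaged), and Ermn at -0.03 and Myrf at 0.02 (THC averaged). The cause was not tested.

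Leaving out each library in turn, members called ranged from 0 to 1 for LPS after vehicle, 0 to 1 for LPS after THC and 0 to 2 for LPS averaged, and the member median after THC from -0.41 to -0.10. For LPS after vehicle, the ranges were -0.01 to 0.20 (Mbp), -0.22 to 0.07 (Mog) and -0.02 to 0.20 (Mag). For LPS after THC they were -0.44 to 0.02 (Mbp) and -0.33 to 0.16 (Myrf), and for LPS averaged -0.18 to 0.07 (Mbp), -0.02 to 0.08 (Cldn11) and -0.04 to 0.22 (Myrf). For THC without LPS they were -0.13 to 0.04 (Mbp), -0.02 to 0.07 (Cnp), -0.02 to 0.12 (Opalin), -0.17 to 0.03 (Ermn) and -0.03 to 0.19 (Myrf). Mobp ranged from -0.21 to 0.06 for THC with LPS, and for THC averaged Mog from -0.09 to 0.05, Mag from -0.25 to 0.03 and Ermn from -0.01 to 0.15.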
